A study of Homo sapiens with 267 samples.

Results

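LAPTM5, GABRE, EPHB6, SLC6A8, SRPRB and KRT10-AS1 were the genes described here, 6 of the 63677 genes counted in single-cell RNA-seq libraries of K562 cells. K562 is an established human line from a chronic myelogenous leukaemia that carries the BCR-ABL fusion kinase. The genes were chosen by their mean log2(CPM + 1) in these same libraries, as rows of the count table that stood furthest apart between a run of cells stained with Hoechst and both runs of cells stained with CellTracker dyes. Their levels by run are therefore given as a description, with no test.

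The cells had been captured on the C1 microfluidic system, some of them after reversible crosslinking with DSP, and the labels used here do not say which libraries were fixed. The Hoechst run held 96 untreated libraries from cells of passages 90 to 92. In the other runs cells came from passages 20 to 22 and 1 set of each run was untreated and stained with CellTracker Green, while the other was stained with CellTracker Orange and treated. The treatment was 10 mM benzene for 3 h in the run called the benzene run here, with 36 Green and 35 Orange libraries. It was 1 µM imatinib, an inhibitor of the ABL kinase, for 1 h in the run called the imatinib run, with 51 Green and 45 Orange libraries. Bulk samples of pooled cells had also been made alongside the captured cells, and since the labels do not mark them, a library may hold a single cell or a pool. According to the study, the Hoechst experiment used another lot of K562 cells than the CellTracker experiments. The CellTracker runs are therefore not taken as independent lots. The libraries of a run share its lot and are not replicates of a condition. Reads were 100 bases long in the Hoechst run and 75 bases in the CellTracker runs, which were also read on another sequencer. Dead cells were sequenced in the Hoechst experiment of the study and were excluded in the CellTracker experiments. Fixed cells were stored longer in the Hoechst experiment. Run, lot, passage, stain, read length, sequencer, dead cells and storage cannot be told apart when the Hoechst run is compared with the others.

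Libraries with at most 70% of their gene reads in their top 500 genes were kept, which left 82 Hoechst libraries, 65 of the benzene run and 95 of the imatinib run. The kept libraries held 50358 to 2043351 reads on genes, with medians of 1284938, 1336630 and 1234117 reads in the Hoechst, benzene and imatinib runs. Levels are given as CPM, the reads of a gene per 1000000 reads on genes of its library. A single read was worth 0.778, 0.748 and 0.810 CPM in the library of median depth of the runs in that order. A count of 0 allowed up to 3 reads, a median of 2.33, 2.24 and 2.43 CPM. Intervals and these limits cover counting error only, since the reads carry no molecular identifiers. The median share of mitochondrial reads was 12.5% in the Hoechst run, 6.48% in the benzene run and 6.68% in the imatinib run, and its part in the differences was not tested. The 12 erythroid and tumour markers of K562 that were checked, among them GATA1, HBG2 and PRAME, were all expressed. None met the rule applied to the 6 genes, a difference of 2 or more in mean log2(CPM + 1) from both CellTracker runs. That rule leaves room for other differences between runs. HBZ was at 3.61, 4.83 and 6.58 on this scale in the Hoechst, benzene and imatinib runs, and KLF1 at 4.58, 2.71 and 5.03. CDKN2A and CDKN2B, which lie in the 9p21 region that K562 is known to have lost, were at 0 in all 3 runs.

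The 6 genes belong to different pathways. LAPTM5 encodes a lysosomal membrane protein of blood cells that binds ubiquitin ligases of the NEDD4 family and lowers surface receptors of lymphocytes. GABRE encodes the epsilon subunit of the GABA-A receptor, a chloride channel opened by the neurotransmitter GABA. EPHB6 is an Eph receptor whose kinase domain is inactive, and it binds ephrins on neighbouring cells. SLC6A8 is the creatine transporter of the plasma membrane. SRPRB is the membrane-anchored beta subunit of the signal recognition particle receptor, which brings ribosomes that make secreted and membrane proteins to the endoplasmic reticulum. KRT10-AS1 is a long non-coding RNA read from the strand opposite to KRT10, a keratin gene.

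The stretches just upstream of the start sites were read from RefSeq (GRCh38.p14), in which all 6 genes were found, to show that the genes high in the Hoechst run have promoters of unlike composition. The 250 bases before the start are given 5′ to 3′ on the strand of the gene, and capitals mark each CpG, the dinucleotide at which DNA is methylated. They lie at chr1:30757775-30758024 (minus strand) for LAPTM5, chr7:142862506-142862755 (plus strand) for EPHB6, chrX:151974677-151974926 (minus strand) for GABRE and chrX:153687676-153687925 (plus strand) for SLC6A8.
LAPTM5: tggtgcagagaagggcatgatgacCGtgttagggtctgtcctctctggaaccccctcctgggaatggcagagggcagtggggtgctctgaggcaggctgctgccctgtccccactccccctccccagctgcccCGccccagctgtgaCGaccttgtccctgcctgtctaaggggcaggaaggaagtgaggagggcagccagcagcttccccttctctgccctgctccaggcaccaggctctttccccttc
EPHB6: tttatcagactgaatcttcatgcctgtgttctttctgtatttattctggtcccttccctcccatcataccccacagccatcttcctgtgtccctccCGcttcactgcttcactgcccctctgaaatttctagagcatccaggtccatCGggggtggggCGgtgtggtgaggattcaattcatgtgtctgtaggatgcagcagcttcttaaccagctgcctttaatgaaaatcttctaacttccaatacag
GABRE: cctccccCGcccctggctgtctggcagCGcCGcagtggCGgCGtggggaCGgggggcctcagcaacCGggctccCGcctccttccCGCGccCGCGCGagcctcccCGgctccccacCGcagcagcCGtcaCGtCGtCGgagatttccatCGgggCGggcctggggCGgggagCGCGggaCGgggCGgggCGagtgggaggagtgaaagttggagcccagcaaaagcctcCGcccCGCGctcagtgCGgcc
SLC6A8: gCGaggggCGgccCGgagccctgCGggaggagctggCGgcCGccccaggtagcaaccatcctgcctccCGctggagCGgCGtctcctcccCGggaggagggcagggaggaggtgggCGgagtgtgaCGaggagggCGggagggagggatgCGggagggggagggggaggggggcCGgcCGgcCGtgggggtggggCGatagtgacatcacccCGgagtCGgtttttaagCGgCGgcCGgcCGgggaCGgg

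LAPTM5 and EPHB6 each had 3 CpG in this window, and 29.3% of the 35116 promoters of the table had as few or fewer. The starts are those of RefSeq and were not matched to the GRCh37 gene spans of the next paragraph. A window may therefore lie inside a gene and not at its outermost start. GABRE had 31 and SLC6A8 had 25, numbers reached by 10.9% and 21.6% of all promoters. SRPRB, low in the Hoechst run, had 15, close to the median of 11 over all promoters. KRT10-AS1 had 48 at the first of its 2 listed starts, a number reached by 0.262% of promoters. On GRCh37 this gene starts within KRT10 on the other strand (chr17:38974369-38978866), so the bases just before its start also belong to KRT10. The letters GATAA, a core that GATA factors bind, were found on either strand before EPHB6 alone among the 6 genes, and 20.4% of all promoters held them. CpG-rich and CpG-poor promoters were thus both present among the genes high in the Hoechst run.

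On GRCh37, the build used for counting, the genes lay on 5 chromosomes. LAPTM5 (ENSG00000162511) lies at chr1:31205316-31230621 on the minus strand. GABRE (ENSG00000102287) lies at chrX:151121596-151143152 on the minus strand, and SLC6A8 (ENSG00000130821) at chrX:152953381-152962043 on the plus strand, so that 1.81 Mb separate them. EPHB6 (ENSG00000106123) lies at chr7:142552823-142568847 and SRPRB (ENSG00000144867) at chr3:133502867-133544616, both on the plus strand. KRT10-AS1 (ENSG00000167920) lies at chr17:38975353-38992522 on the plus strand.

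Exons overlapped those of other genes in a few places, and reads were not counted by strand. KRT10-AS1 shared 61 exon bases, 1.99% of its exon length, with KRT10. KRT10 had a mean log2(CPM + 1) of 4.03 in the Hoechst run against 3.31 and 3.35 in the benzene and imatinib runs, a direction opposite to that of KRT10-AS1. SRPRB shared 9.09% of its exon length with RAB6B on the other strand and 2.91% with TF. RAB6B averaged 6.52, 13.2 and 1.33 CPM in the Hoechst, benzene and imatinib runs, far below SRPRB in each. SLC6A10P, a copy of SLC6A8 on chromosome 16, averaged no more than 0.314 CPM in any run.

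The genes were ranked by the difference in mean log2(CPM + 1) between the Hoechst run and the nearer CellTracker run. Of 12618 genes with at least 1 CPM in 20% of the libraries of any run, 93 (0.737%) were higher in the Hoechst run than in both others by 2 or more, and 44 (0.349%) were lower. LAPTM5 was the first of the higher genes, 5.65 above the nearer run, followed by DLK1 at 5.21. GABRE followed at 4.36, EPHB6 at 4.29 and SLC6A8 at 3.997. The next genes, not among those described here, were H19 at 3.89 and TMEM158 at 3.79. Among the lower genes KRT10-AS1 was the third, at -3.16, and SRPRB the fifth, at -2.99. The pseudogenes UBBP4 (-3.48), RPS2P55 (-3.19) and RPL23AP2 (-3.07) stood around them, and PHB1 came next at -2.90. The median difference over all genes compared was 0.49 from the benzene run and -0.12 from the imatinib run.

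LAPTM5 was present in all 82 Hoechst libraries. Its levels there ran from 4.01 to 1305 CPM with a median of 390 CPM, and 73 libraries had 100 CPM or more. They ran from 0 to 1431 CPM in the benzene run, with a median of 0.792 CPM and 28 of 65 libraries at 0. The imatinib run had a highest level of 236 CPM and a median of 3.33 CPM, and 33 of 95 libraries were at 0. The runs overlapped in few libraries, since 3 libraries of the benzene run and none of the imatinib run reached the Hoechst median. At least 1 CPM of LAPTM5 was found in every Hoechst library, in 31 of 65 libraries of the benzene run and in 59 of 95 of the imatinib run. The 5 highest libraries carried 84.2% of the summed CPM in the benzene run and 39.6% in the imatinib run.

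GABRE had reads in every Hoechst library and at least 1 CPM in 81 of 82. Its levels there ran from 0.785 to 1678 CPM with a median of 204 CPM. Its median was 3.56 CPM in the benzene run, with a highest value of 747 CPM and 22 libraries at 0. It was 2.07 CPM in the imatinib run, with a highest value of 550 CPM and 33 libraries at 0. More CellTracker libraries carried it at a Hoechst level than was the case for LAPTM5, with 5 libraries of each CellTracker run at or above the Hoechst median.

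EPHB6 was the most uneven of the 4 higher genes within the Hoechst run, with an SD of log2(CPM + 1) of 2.98 over libraries against 1.46 to 1.99 for the others. It was at 0 in 12 libraries, reached 100 CPM in 22, and had a median of 34.4 CPM and a highest value of 1213 CPM. Of the libraries of the benzene run 58 of 65 were at 0, and the highest value was 48.3 CPM. Of those of the imatinib run 79 of 95 were at 0, and the highest value was 124 CPM. The share of libraries with at least 1 CPM was 82.9% in the Hoechst run (exact 95% binomial interval 73 to 90.3%), 4.62% in the benzene run (0.962 to 12.9%) and 12.6% in the imatinib run (6.70 to 21%). Without the libraries with over 10000 detected genes, described further on, it was 81.8%, 1.61% and 8.79%. EPHB6 came nearest to an absent gene in the CellTracker runs.

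SLC6A8 was at 0 in 1 Hoechst library and had a median of 320 CPM and a highest value of 2144 CPM in that run. The benzene run had 24 libraries at 0, a median of 0.839 CPM and a highest value of 378 CPM. In the imatinib run 13 libraries were at 0, the median was 12.8 CPM and the highest value 543 CPM. SLC6A8 thus differed between the CellTracker runs too, by -1.55 in mean log2(CPM + 1) for the benzene minus the imatinib run. Of all genes compared, 32.2% differed by 1 or more between these runs.

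**Figure D1:**
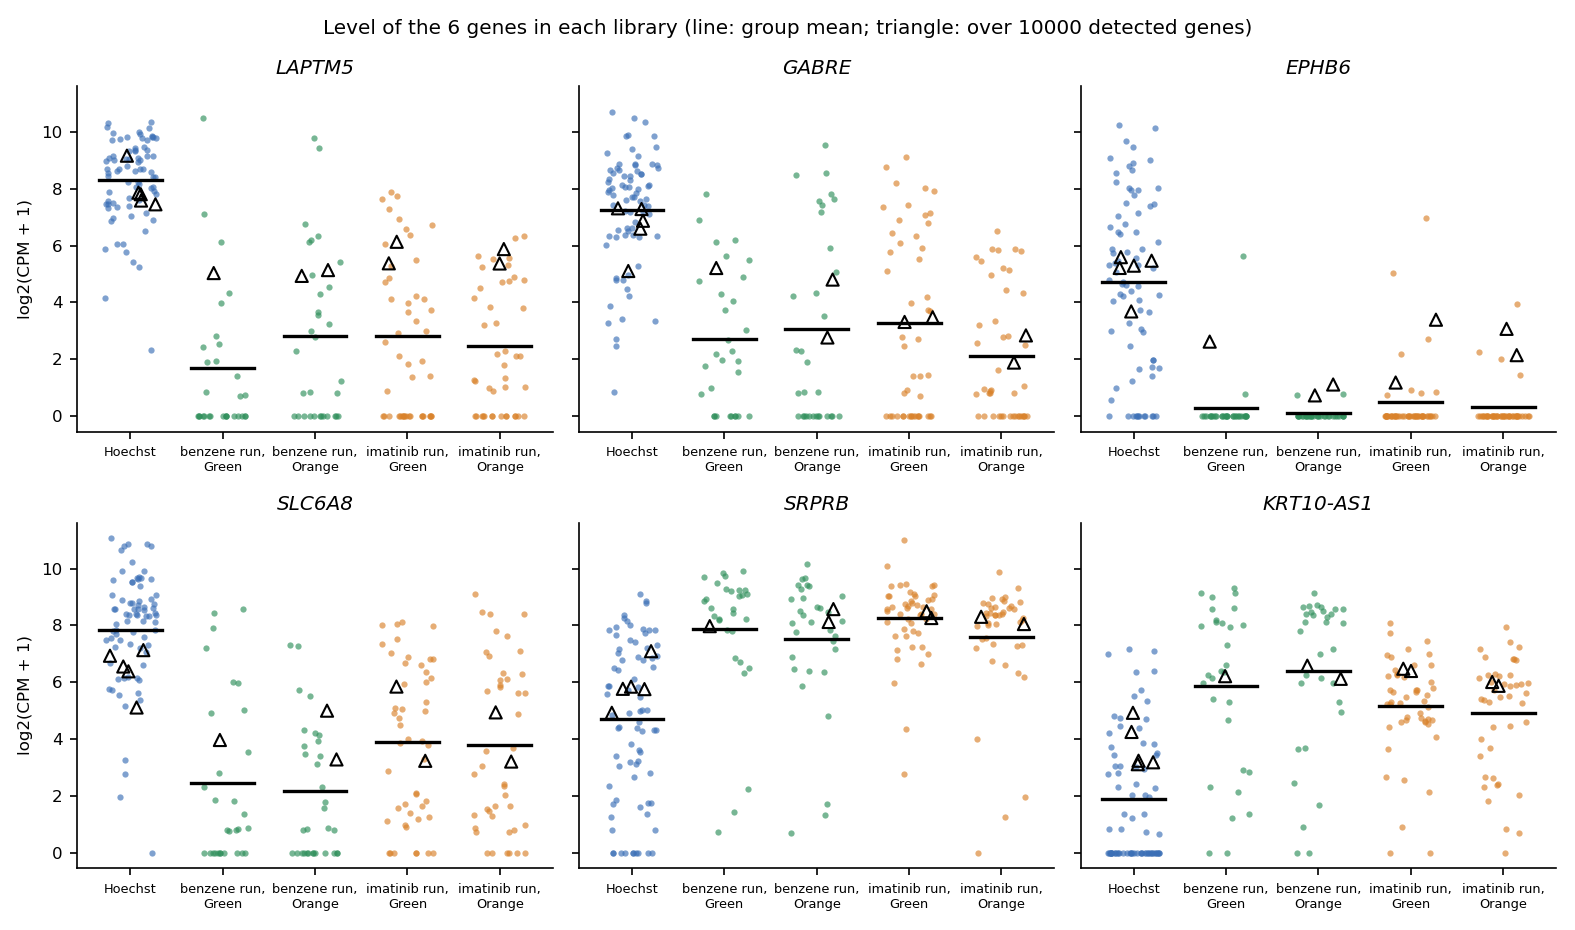
Level of each gene, as log2(CPM + 1), in each kept library of the Hoechst set (82), the benzene run (31 Green, 34 Orange) and the imatinib run (50 Green, 45 Orange). Points are libraries, lines are group means and triangles are libraries with over 10000 detected genes. LAPTM5, GABRE, EPHB6 and SLC6A8 sit higher in the Hoechst set, with many CellTracker libraries at 0, and SRPRB and KRT10-AS1 sit lower.

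SRPRB showed the opposite pattern with fewer zeros. The median was 31.2 CPM in the Hoechst run, where the levels ran from 0 to 549 CPM and 10 libraries were at 0. It was 332 CPM in the benzene run (0.617 to 1150 CPM) and 334 CPM in the imatinib run (0 to 2075 CPM). At least 1 CPM was found in 85.4% of the Hoechst libraries (75.8 to 92.2%) against 96.9% (89.3 to 99.6%) and 98.9% (94.3 to 99.97%). SRPRB was thus on in most libraries of all runs and lower in level in the Hoechst run, where 14 of 82 libraries reached the lower quartile of the CellTracker libraries, 185 CPM.

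KRT10-AS1 was at 0 in 38 of the 82 Hoechst libraries, with a median of 0.771 CPM and a highest value of 144 CPM. Of the imatinib run 3 libraries were at 0, the median was 45.1 CPM and the highest value 272 CPM. In the benzene run 4 libraries were at 0, the median was 96.5 CPM and the highest value 635 CPM. The levels in the benzene run fell into a low and a high part with few libraries between, in both stains. Over 200 CPM lay 12 of 31 Green and 17 of 34 Orange libraries, while 1 and 2 libraries lay between 100 and 200 CPM. Above 200 CPM lay also 2 Green and 1 Orange library of the imatinib run, and none of the Hoechst libraries did. The limit of 200 CPM was set after the values had been seen.

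Divided by exon length, SRPRB had the highest mean level of the 6 genes in both CellTracker runs, with 89.5 and 84.6 CPM per kb in the benzene and imatinib runs. In the Hoechst run LAPTM5 was the highest with 139 CPM per kb, followed by SLC6A8 with 76.3 and GABRE with 30.0. EPHB6 and SRPRB were close to each other there, with 24 and 20.6 CPM per kb and spreads over libraries far wider than this difference. KRT10-AS1 was the lowest with 4.19 CPM per kb.

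**Figure D2:**
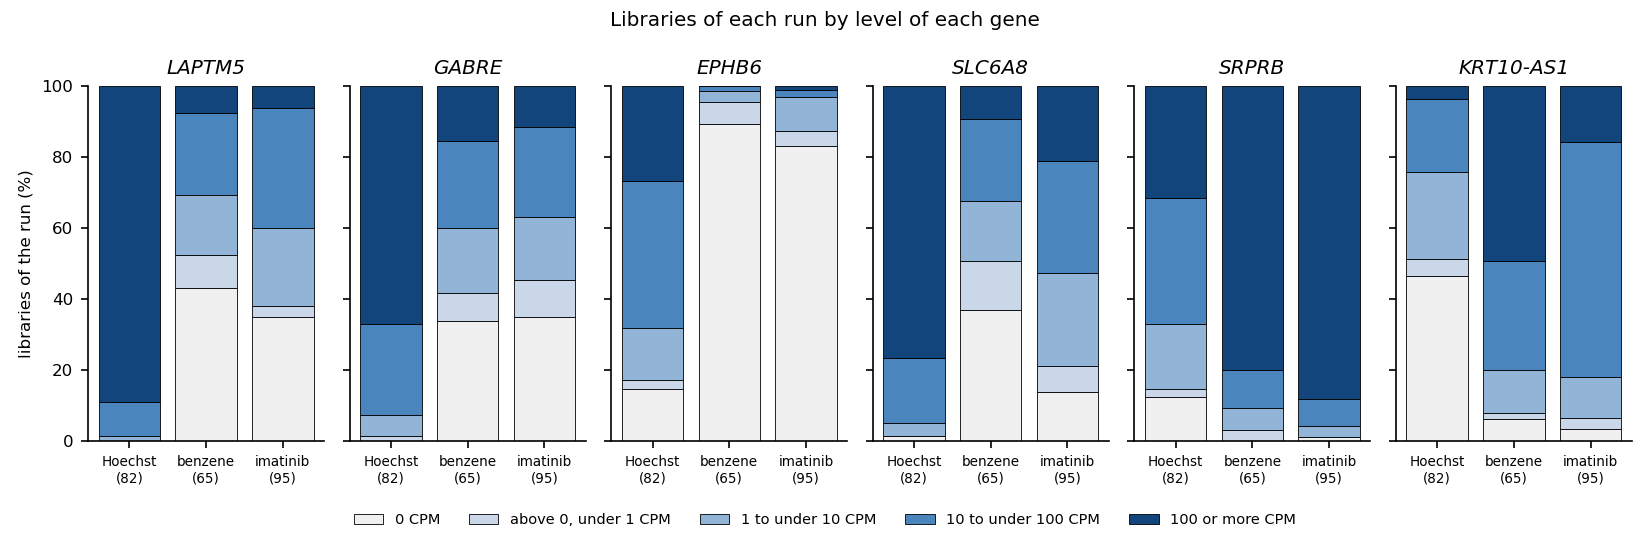
Share of the kept libraries of each run (82 Hoechst, 65 benzene, 95 imatinib) in 5 classes of CPM for each gene, from 0 CPM (lightest) to 100 CPM or more (darkest). LAPTM5 has 73 Hoechst libraries in the darkest class against 5 and 6 in the CellTracker runs, and EPHB6 has 58 of 65 and 79 of 95 CellTracker libraries at 0.

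A few libraries of each run had over 10000 detected genes (more than 2 reads), 5 in the Hoechst run, 3 in the benzene run and 4 in the imatinib run. The labels do not say whether these libraries are the bulk samples, so their levels cannot be read as those of single cells. No CellTracker library among them was at 0 for any of the 6 genes. LAPTM5 was at 29.6, 31.8 and 34.3 CPM in the benzene run and at 40.4, 40.6, 57.9 and 69.3 CPM in the imatinib run, against 175, 191, 224, 232 and 574 CPM in the Hoechst run. The groups did not overlap, as in this direction for 1.66% of all genes compared, and the Hoechst mean was 6.43-fold higher.

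EPHB6 was at 11.9, 36.2, 38.3, 43.3 and 47.3 CPM in these Hoechst libraries and between 0.658 and 9.51 CPM in the 7 CellTracker libraries. The groups did not overlap here either. GABRE ran from 33.5 to 158 CPM against 2.69 to 36.1 CPM, and SLC6A8 from 33.5 to 139 CPM against 8.22 to 56.5 CPM, both with overlap.

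SRPRB was at 29.3, 53, 53.4, 56.3 and 135 CPM in the Hoechst libraries with over 10000 genes, below all 7 CellTracker libraries (250 to 380 CPM). KRT10-AS1 was at 7.64, 8.06, 8.41, 18 and 29.3 CPM, below 57.5 to 94.7 CPM. Of all genes compared, 1.66% were higher in every such Hoechst library than in every such CellTracker library and 6.67% were lower. The absence of overlap for LAPTM5, EPHB6, SRPRB and KRT10-AS1 is therefore given as a description.

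The libraries with over 10000 genes, which may be pools or single cells, also varied less among themselves. The coefficient of variation of LAPTM5 in the benzene run was 7.32% over the 3 libraries with over 10000 genes and 373% over the other 62. For KRT10-AS1 in that run it was 17.8% and 93.9%, and for EPHB6 in the imatinib run 69.2% over 4 libraries and 640% over the other 91. In the Hoechst run the values for LAPTM5 lay closer, at 59.7% and 72.1%. The mean CPM itself was similar in some cases, with KRT10-AS1 at 72.9 and 56.2 CPM in the imatinib run, and dissimilar in others, with LAPTM5 at 52.1 and 23.3 CPM there.

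Within the CellTracker runs, Green and Orange libraries were compared, a contrast that the choice of the genes had not used. Each stain and run was 1 culture and the drug differed between runs, so no test was run. LAPTM5 was higher in Orange than in Green libraries of the benzene run, by 1.14 in mean log2(CPM + 1), and 6.45% of all genes differed by 1 or more there. It was at 10 CPM or more in 14 of 34 Orange and 6 of 31 Green libraries. Its difference was -0.33 in the imatinib run. GABRE was lower in Orange than in Green libraries of the imatinib run, by 1.13, where 2.07% of all genes differed by 1 or more. None of the 45 Orange libraries had 100 CPM of GABRE against 11 of the 50 Green libraries. Its difference was 0.34 in the benzene run. The other genes differed by at most 0.66 between stains in either run.

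Co-expression was described by Spearman rho over the libraries of each run, for 15 pairs of genes. The points of a run share a culture lot and a range of depth, and in sparse counts a weak rho is no finding. The median rho was 0.00 in the Hoechst run, 0.01 in the benzene run and 0.10 in the imatinib run. LAPTM5 and EPHB6 were the pair with the highest rho in the Hoechst run (0.32, n = 82). LAPTM5 was at 10 CPM or more in all 56 Hoechst libraries with EPHB6 at that level and in 25 of the 26 without. Their rho was 0.03 in the benzene run (n = 65) and 0.20 in the imatinib run (n = 95). Without the libraries with over 10000 genes it was 0.35, -0.18 and 0.08 in the Hoechst, benzene and imatinib runs.

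GABRE and SLC6A8, 1.81 Mb apart on the X chromosome, had a rho of 0.24 in the Hoechst run, 0.01 in the benzene run and 0.02 in the imatinib run. LAPTM5 and SRPRB had the lowest rho, -0.31 in the benzene run, but 0.10 in the imatinib run. In the Hoechst run 7 of the 8 pairs of a higher with a lower gene had a negative rho, with a median of -0.14. Pairs among the 4 higher genes had medians of 0.11, 0.02 and 0.10 in the Hoechst, benzene and imatinib runs. The number of detected genes had a rho of 0.36 with LAPTM5 in the imatinib run and of 0.36 with GABRE in the benzene run, and of at most 0.26 with any other of the 6 genes.

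**Figure D3:**
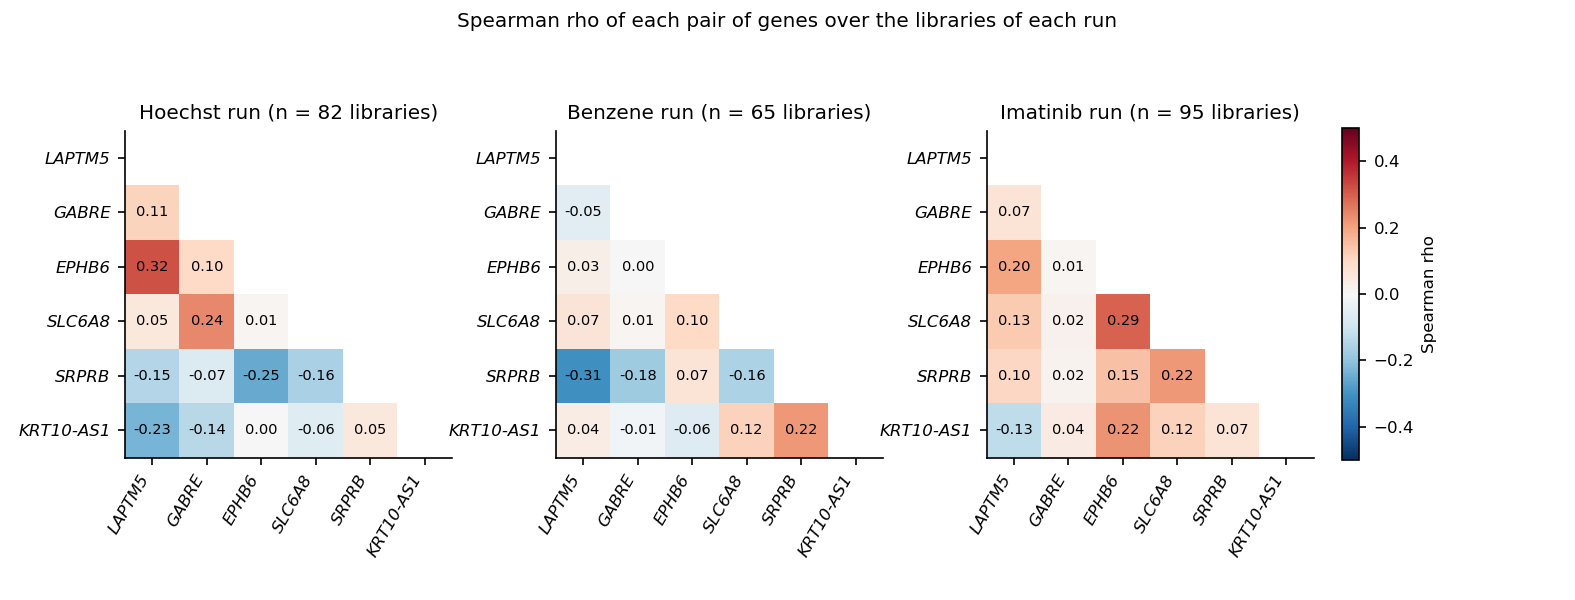
Spearman rho of each pair of the 6 genes over the kept libraries of the Hoechst (n = 82), benzene (n = 65) and imatinib (n = 95) runs, on a colour scale from -0.5 to 0.5. The highest value is 0.32 for LAPTM5 with EPHB6 in the Hoechst run, and the lowest is -0.31 for LAPTM5 with SRPRB in the benzene run.

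The libraries were counted by how many of the 4 higher genes they carried together. At 10 CPM or more, 52 of 82 Hoechst libraries carried all 4 of LAPTM5, GABRE, EPHB6 and SLC6A8, 24 carried 3 of them, and none carried 0. In the benzene run 20, 27, 13, 5 and 0 of 65 libraries carried 0, 1, 2, 3 and 4 of them. In the imatinib run these numbers were 21, 34, 29, 10 and 1 of 95 libraries. Of the libraries with any of the 4 genes, 18 of 45 in the benzene run (40%) and 40 of 74 in the imatinib run (54.1%) carried 2 or more. A single CellTracker library carried all 4, and 16 carried 3 or more, or 13 without the libraries with over 10000 genes.

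That library was Green library 28 of the imatinib run. It held LAPTM5 at 154 CPM, GABRE at 12.4 CPM, EPHB6 at 124 CPM and SLC6A8 at 80.1 CPM. Its SRPRB was at 526 CPM and its KRT10-AS1 at 23.9 CPM, both above the upper quartiles of the Hoechst run (127 and 9.79 CPM). LAPTM5, EPHB6 and SLC6A8 of this library were thus nearer to the Hoechst run, and GABRE and both lower genes nearer to the CellTracker runs, by the midpoints given further on.

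Among the kept libraries the highest LAPTM5 was found in Green library 3 of the benzene run, with 1431 CPM. It had 0.961 CPM of GABRE, 0 of EPHB6 and 10.6 CPM of SLC6A8. Its SRPRB was at 320 CPM, near the median of its run, and its KRT10-AS1 was at 0. The next, Orange libraries 6 and 26 of the same run, had 881 and 693 CPM of LAPTM5, no EPHB6, and KRT10-AS1 at 407 and 380 CPM. Their GABRE was at 0.812 and 0 CPM. Their SLC6A8 was at 0.812 CPM and at 156 CPM, the latter above the lower quartile of the Hoechst run (124 CPM). Of these 3 libraries 1 thus had another higher gene at or above the lower Hoechst quartile, and the others had none. For KRT10-AS1, the level of 0 in Green library 3 was also that of 38 of the 82 Hoechst libraries.

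The libraries with the most GABRE or SLC6A8 were mixed too. Green library 43 of the imatinib run had 550 CPM of GABRE with LAPTM5 and EPHB6 at 0 and SLC6A8 at 1.38 CPM, and its SRPRB was the highest of all libraries at 2075 CPM. The next of that run, Green library 90, had 431 CPM of GABRE and also 276 CPM of SLC6A8, with LAPTM5 and EPHB6 at 0. Orange library 43 of the benzene run had 747 CPM of GABRE with LAPTM5 at 10.7 CPM, SLC6A8 at 16.7 CPM and EPHB6 at 0. For SLC6A8, Orange library 74 of the imatinib run had 543 CPM with GABRE at 56.7 CPM, EPHB6 at 1.72 CPM and LAPTM5 at 0. In the benzene run Green library 20 had 378 CPM of SLC6A8 with GABRE at 49.2 CPM and LAPTM5 at 0, and Green library 65 had 343 CPM with LAPTM5 at 139 CPM and GABRE at 0. High levels of a gene thus came with a second higher gene in some of these libraries and alone in others.

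**Figure D4:**
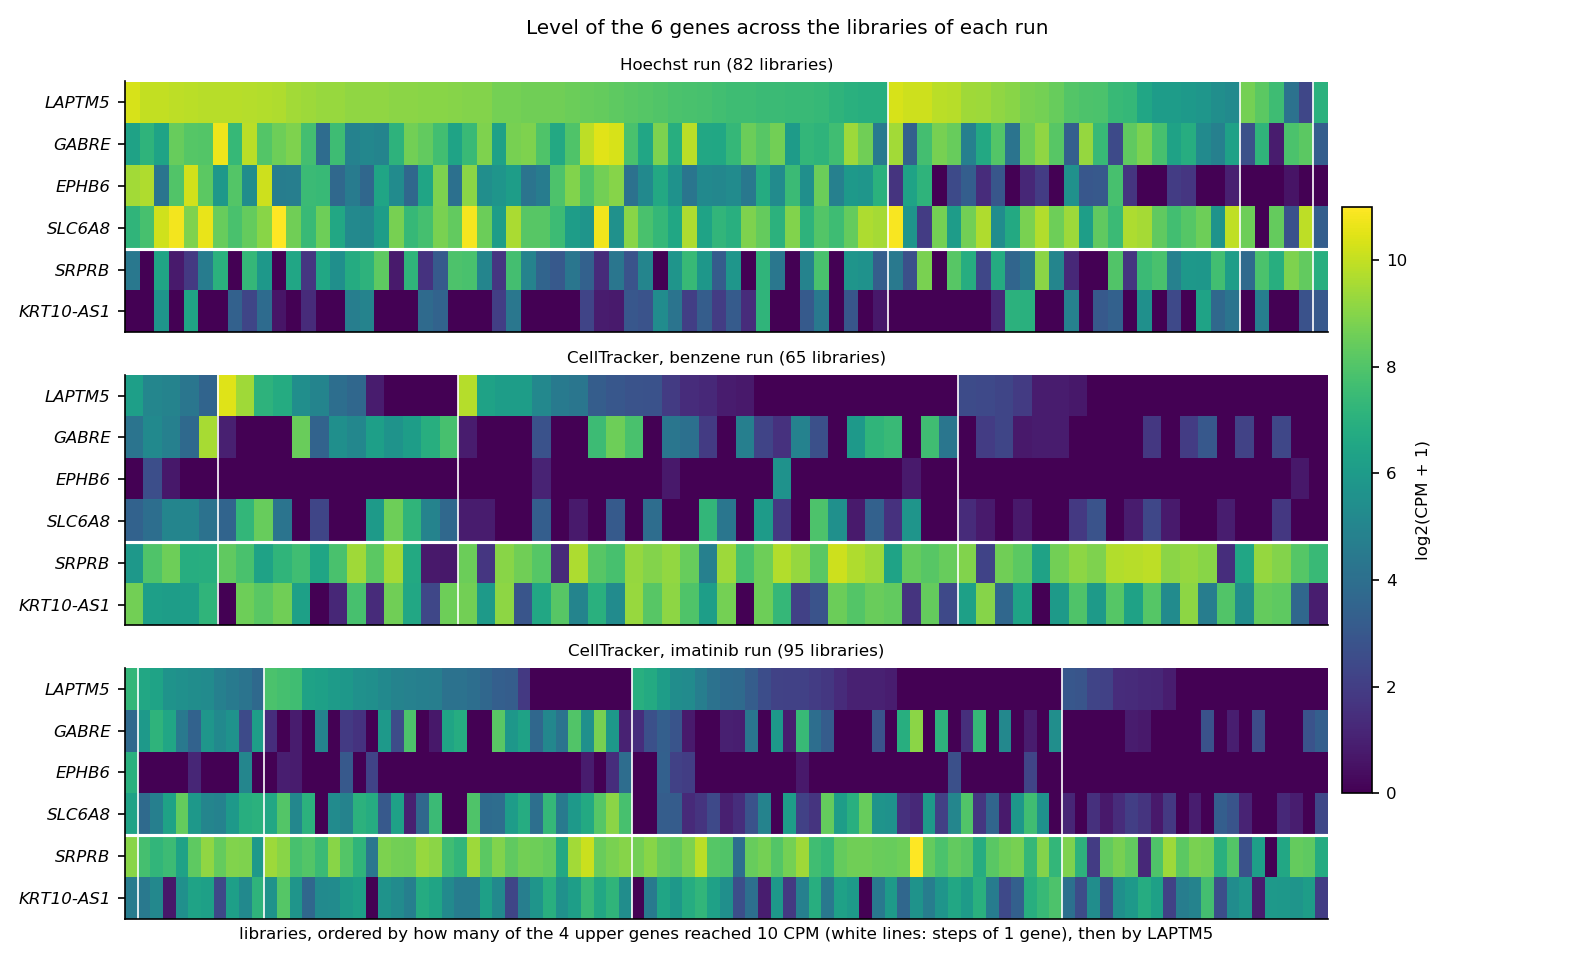
Levels of the 6 genes, as log2(CPM + 1) from 0 (dark) to 11 (bright), in each library of the Hoechst (82), benzene (65) and imatinib (95) runs. Columns are libraries ordered by how many of the 4 upper genes reached 10 CPM, with white lines at each step of this number. The first block holds the 52 Hoechst libraries with all 4, and in the imatinib run it is 1 library.

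Shares of libraries with one gene, taken with and without another, were close in the CellTracker runs. In the benzene run LAPTM5 was at 10 CPM or more in 9 of 26 libraries with GABRE (34.6%) and in 11 of 39 without (28.2%). The imatinib run had 15 of 35 (42.9%) with and 23 of 60 (38.3%) without. With SLC6A8 the gaps were wider, with LAPTM5 in 9 of 21 libraries (42.9%) against 11 of 44 (25%) in the benzene run. The imatinib run had 24 of 50 (48%) against 14 of 45 (31.1%). EPHB6 was at 10 CPM or more in only 1 and 3 libraries of the CellTracker runs, too few to compare, and all 3 of the imatinib run carried SLC6A8.

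Among the Hoechst libraries, the lower genes were shared no more closely. SRPRB and KRT10-AS1 were both at 10 CPM or more in 15 of 82 libraries, and 22 had neither. KRT10-AS1 was on in 15 of 55 libraries with SRPRB (27.3%) and in 5 of 27 without (18.5%). The 3 Hoechst libraries with the most SRPRB, 549, 465 and 445 CPM, had KRT10-AS1 at 0. A single Hoechst library reached the lower quartile of the CellTracker libraries for both genes.

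The libraries were also counted against the levels of the Hoechst run itself. At or above the lower Hoechst quartiles (182 CPM for LAPTM5, 82.5 CPM for GABRE, 3.32 CPM for EPHB6 and 124 CPM for SLC6A8), 30 Hoechst libraries had all 4 genes and 29 had 3. No CellTracker library had 3 or 4 of them. Of the benzene run 1 library had 2 and 19 had 1, and of the imatinib run 4 had 2 and 32 had 1.

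Each library was also placed, gene by gene, on the Hoechst or the CellTracker side of the midpoint between the mean log2(CPM + 1) of the Hoechst run and the average of the other means. In the Hoechst run 33 of 82 libraries had all 6 genes on the Hoechst side, and 71 (86.6%) had 4 or more. In the benzene run none of 65 libraries had 4 or more, and in the imatinib run 2 of 95 (2.11%) had 4. LAPTM5 placed the most Hoechst libraries, 79 of 82, and SRPRB the fewest, 53. The midpoints were set by the same libraries, so these counts describe them and predict nothing for others.

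**Figure D5:**
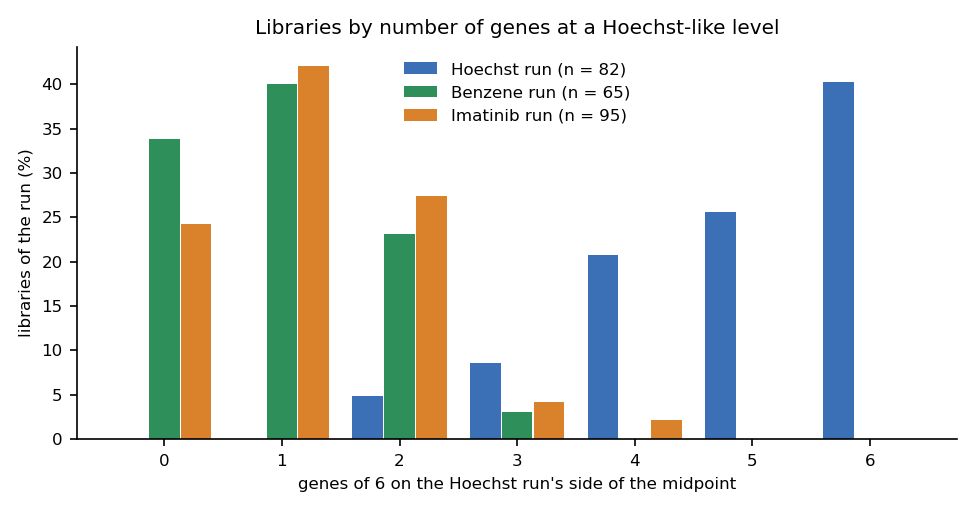
Share of the libraries of each run (82 Hoechst, 65 benzene, 95 imatinib) by how many of the 6 genes lay on the Hoechst side of the midpoint between the runs. Hoechst libraries have 2 to 6 genes on that side, benzene libraries 0 to 3 and imatinib libraries 0 to 4.

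The other genes of the families and pathways of the 6 are given from lists, with values in mean log2(CPM + 1) for the Hoechst, benzene and imatinib runs in that order. The limit, a difference of 2 or more from both CellTracker runs, was met by 0.737% of all genes compared as higher and by 0.349% as lower. A short list with none meeting it lies near these shares and is no result about its genes. Of the other GABA-A receptor subunits 2 of 18 had at least 1 CPM in 20% of the libraries of any run, GABRG3 and GABRG1, and neither met the limit of 2 in both differences. GABRG3 had a mean log2(CPM + 1) of 0.99 in the Hoechst run and of 0.98 and 2.39 in the benzene and imatinib runs. Among the alpha and beta subunits, which form the channel together with another kind, GABRA3 was the highest in the Hoechst run, at 0.45, 0.23 and 0.41.

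Of 21 other Eph receptors and ephrins 4 were compared and none met the limit. EPHB4, an active Eph kinase, was at 2.77 in the Hoechst run and at 1.20 and 3.13 in the benzene and imatinib runs. EFNA4, an ephrin ligand, was at 1.46, 0.53 and 0.93. Their median difference was 0.88 from the benzene run and 0.10 from the imatinib run, beside 0.49 and -0.12 over all genes.

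Of 8 other genes of creatine metabolism 5 were compared and none met the limit. CKB, the brain-type creatine kinase, was high in all runs, at 8.93, 8.74 and 8.54. GAMT, which makes creatine, was at 3.43, 1.28 and 3.12.

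All 13 other genes of the signal recognition particle, its receptor and the Sec61 channel were compared, and none met the limit, with median differences of 0.54 and -0.02. SRPRA, the partner of SRPRB in the receptor, was at 6.86 in the Hoechst run and at 5.48 and 6.92 in the benzene and imatinib runs. SRP14, an RNA-binding subunit of the particle, was at 8.72, 9.15 and 8.64. SRP72 was at 7.48, 8.15 and 8.07.

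Of the 7 relatives of LAPTM5 and NEDD4-type ligases compared, none met the limit. LAPTM4B, a lysosomal relative, was at 6.68, 6.11 and 5.67, and ITCH, a ubiquitin ligase, at 4.68, 3.49 and 5.03. Of 16 genes of white blood cells in general, 13 were compared and none met the limit, with median differences of 0.99 and 0.75. LCP1, an actin bundler, was at 6.88, 7.00 and 6.51, and CD52 came nearest to the limit at 5.98, 4.03 and 2.82.

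Among 9 lymphoid markers 3 were compared, and CD3D, a chain of the T cell receptor complex, met the limit with 5.61 in the Hoechst run against 2.40 and 1.28. The defining markers CD3E, CD2, CD7, CD79A and MS4A1 were at or near 0 in every run, the highest being 0.05. Summed over the list, the mean levels were 165, 46.2 and 14.1 CPM in the Hoechst, benzene and imatinib runs, of which CD3D made 134, 42.5 and 9.04 CPM. None of the myeloid (2 of 7 compared), epithelial (2 of 6) or fibroblast markers (0 of 5) met the limit. The level of LYZ, a myeloid marker, was 2.66 in the Hoechst run and 2.58 and 3.99 in the others, and that of EPCAM, an epithelial marker, was 4.51, 3.56 and 4.39.

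Genes near the 6 loci were compared in the same way. Since only 0.737% of all genes were higher and 0.349% lower by the limit, few or no such genes near a locus is no result about the neighbours. Between GABRE and SLC6A8 13 genes were compared and none met the limit in either direction, the MAGEA genes of this interval included. Within 1000 kb, 8 genes around LAPTM5, 15 around GABRE, 12 around EPHB6, 30 around SLC6A8 and 7 around SRPRB were compared, and no gene met the limit apart from the 6 themselves. Around KRT10-AS1 1 of 20 genes did, IGFBP4, a binding protein of insulin-like growth factors, at 5.22 in the Hoechst run against 1.63 and 1.33, higher where KRT10-AS1 was lower. BCAP31, 3.9 kb from SLC6A8, was at 7.38, 8.26 and 8.55, and SDC3, 112 kb from LAPTM5, at 3.57, 2.04 and 2.31. KEL, a blood group gene 69.4 kb from EPHB6, was at 2.45, 2.40 and 4.36.

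The genes whose levels went most closely with each of the 6 were found within runs, so that the difference between runs played no part. Over the 82 Hoechst libraries and 11754 genes, LAPTM5 was most like MRPL12 (rho 0.41) and DCAF16 (0.40), and the 99th percentile over all genes was 0.26. For GABRE, DVL1 was among the most alike (0.44), with a 99th percentile of 0.28. EPHB6 was most like INSIG1-DT (0.51), a non-coding RNA of chromosome 7, and MTHFD2L (0.50), with a 99th percentile of 0.32. SLC6A8 was most like AKAP9 (0.48) and PGGHG (0.48), with a 99th percentile of 0.31.

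For the lower genes the CellTracker runs were used. SRPRB was most like SSR4 in the benzene run (0.63, n = 65, 99th percentile 0.47) and most like THOC7 in the imatinib run (0.48, n = 95, 99th percentile 0.24). KRT10-AS1 was most like RANBP9 in the benzene run (0.53, 99th percentile 0.31) and RTCB in the imatinib run (0.39, 99th percentile 0.25). No gene was among the 3 most alike in both CellTracker runs for either gene, and none of the 6 genes was among the 3 most alike of another. Each of these is among the highest of more than 10000 values, so the size of a single rho is a description of these libraries.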

How the data were processed

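Single-cell RNA-seq libraries of K562 cells were analysed from a count table that the authors deposited, made by aligning reads with HISAT2 to GRCh37 with ERCC spike-in sequences and counting uniquely mapped reads per Ensembl gene with featureCounts (Subread 1.5.0, per the labels). The deposited CPM table, scaled by the authors to all counts with ERCC reads in the total, served as an alternative only. Of 267 titled libraries 263 matched a column, and 4 columns that matched no title were not used. CPM was recomputed here per 1000000 reads on genes, and means were taken on the log2(CPM + 1) scale. A library was left out where 500 genes took over 70% of its gene reads. Groups came from the run, stain and drug of the labels. No test was run, because the libraries of a run share a lot and the genes were chosen on this contrast. Binomial intervals are exact (95%). Gene names and coordinates came from GENCODE v44lift37. Named genes were the 6 genes, those in each list that differed by 2 or more from both CellTracker runs and otherwise the 2 with the highest mean, the 3 most alike of each gene, the nearest compared gene on either side, and neighbours in the ranking; other genes given were chosen after their values were seen, and 1 gene that this rule names is not reported here. The 6 genes and the lists were chosen with earlier results of these data known. The rules for differences and likeness were tested on simulated data. Python 3.11.15, numpy 2.4.6, pandas 2.3.3, scipy 1.17.1, matplotlib 3.10.9, R 4.3.3 and edgeR 4.0.16 (TMM factors only) were used.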

Additional observations from a re-analysis of the deposited data

How the results depend on the processing

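All 6 differences between the Hoechst run and the nearer CellTracker run kept their direction under 8 alternatives, with 46 of 48 values within 1 SD over libraries of the value reported. With a pseudocount of 10 the differences shrank to 3.98 for LAPTM5, 2.21 for EPHB6 and -1.62 for KRT10-AS1, the last under the limit of 2. TMM scaling moved the median difference of all genes from the benzene run from 0.49 to 0.39. With a pseudocount of 10, 0 of the 12 differences between stains reached 1, where 2 had. Pairs of genes with a rho of 0.3 or more in size numbered 2 of 45, against 1 with Pearson's r, 1 over all matched libraries and 5 with rho corrected for detected genes. CellTracker libraries with all 4 higher genes numbered 1 at 10 CPM, 8 at 1 CPM and 0 at 100 CPM. A count of 0 allowed a median of 2.24 to 2.43 CPM by run, and up to 59.6 CPM in the shallowest Hoechst library. No paired analysis was possible because no result comes from a test and library numbers in the titles name capture libraries only.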

Other observations

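The 21 libraries left out for their share of reads in the top 500 genes entered no comparison. The 14 of the Hoechst run had a median of 5.37 CPM of LAPTM5, with 5 libraries at 0 and a highest value of 1456 CPM. KRT10-AS1 was at 0 in 13 of them and SRPRB had a median of 2.01 CPM. GABRE had a median of 81.8 CPM there and was at 0 in 2 libraries. In the 6 of the benzene run EPHB6 and SLC6A8 were at 0 throughout, LAPTM5 was at 0 in 5, and GABRE reached 1350 CPM in 1 library. The single library of the imatinib run had GABRE at 499.9 CPM, SLC6A8 at 84.3 CPM and LAPTM5, EPHB6 and KRT10-AS1 at 0.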
